A study of Mus musculus with 20 samples.

Results

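Htr3a was described in all data sets in which it was measured, namely CRAC binding sites of HuD, 3′ end counts, and total and polysomal RNA of NSC-34 cells. The gene was picked by name, with its values in these data already known, and it is 1 of 15229 genes that appear in at least 1 of the 3 deposited tables. Because its values had a part in that choice, they are given as levels, changes and errors without a p-value. NSC-34 is a mouse line made by fusing embryonic spinal cord cells, enriched for motor neurons, with neuroblastoma cells. Its Trex-HuD derivative produces human HuD when tetracycline is added. For CRAC, Trex-HuD cells (3 libraries) and control Trex cells (3 libraries) both received 10 µg/ml tetracycline for 24 h according to the labels. The study's methods give the same dose and time, whereas its results text gives doxycycline at 2 µg/ml for 48 h for CRAC. For the sequencing of total RNA, polysomal RNA (POL-Seq) and 3′ ends, Trex-HuD cells received 2 µg/ml tetracycline for 48 h by the labels (2, 2 and 3 libraries). The control cells (2, 2 and 3 libraries) are labelled only as control. Nothing in the labels says which control cells these were, or whether they received tetracycline, so HuD, tetracycline and any difference between cell lines cannot be told apart there. The study's methods describe the libraries of a group as biological duplicates (total and polysomal RNA) or triplicates (3′ ends), with no more said of the cultures.

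Htr3a encodes the A subunit of the 5-HT3 receptor, the serotonin receptor that is itself an ion channel. The other serotonin receptors signal through G proteins. 5-HT3 receptors are pentamers of the Cys-loop family, together with the nicotinic acetylcholine, GABA-A and glycine receptors, and open a cation pore when serotonin binds. The A subunit can form a channel alone, whereas the B subunit needs the A subunit to reach the cell surface. HuD (Elavl4) is a neuronal RNA-binding protein that binds U-rich and AU-rich stretches, mostly in 3′ UTRs.

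Htr3a (ENSMUSG00000032269) lies on the minus strand of chromosome 9, at chr9:48899214-48911099 on GRCm38, and its transcript of 2082 nt has 9 exons. The 3′ UTR follows the stop codon for 478 nt within the last exon, and U makes up 29.7% of it. CRAC listed 1 window in the gene, the 7-mer CAUUUUU, which starts at position 303 after the stop codon. The 7-mer occurs once in the 3′ UTR, at chr9:48899383-48899389, and its last base lies 169 nt before the 3′ end of the transcript. The deposited interval of 48899384 to 48899391 was shifted to the bases that match the listed 7-mer. Both sequences below are from GENCODE vM21 transcripts, 5′ to 3′. The first shows the window listed from CRAC, with its 7-mer in capitals and the bases around it. The second is the end at which the 3′ end reads were counted, with the AAUAAA polyadenylation signal in capitals.
Htr3a crosslink window: gcucauuuccaCAUUUUUuuuuucugauca
Htr3a 3′ end (chr9:48899214-48899243): gcaggggauAAUAAAaugcuaugauaucuu
The window opens a run of 10 U, and U makes up 53.3% of the 30 nt shown. The 7-mer was present in the last 478 nt of 12.1% of the 14528 genes whose annotated 3′ UTR is at least that long, read on the transcript strand, and 10 U in a row were present in 6.89%. The AU-rich pentamer AUUUA was absent from the Htr3a 3′ UTR and present in 58.0% of the same genes. AAUAAA occurred once, starting 21 nt before the end.

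In CRAC, the Htr3a window was covered by 43 reads in HuD cells (95% exact Poisson interval 31.1 to 57.9, counting error only) and by 0 reads in control cells. The authors penalized and removed locations with reads in control cells before listing windows, so 0 control reads is largely a condition of being listed, met by all but 96 of the 2598 unique windows in protein coding genes. Of the 43 reads, 7 had a deletion, the mark left by reverse transcription across a crosslinked base, which is 16.3% (95% exact Clopper-Pearson interval 6.81% to 30.7%). The median over the 2598 windows was 19.4%. The authors pooled the 3 replicates before deposit and the total reads of the libraries are not in the table, so these values have no replicate error and the depth behind them is unknown. The authors' combined p-value for the window was 0.0736, above 0.05, against a median of 0.149 over all these windows. Its score against the authors' motif matrix was 0.91, against a median of 0.9. A score above the authors' cut-off, set from random sequences, was itself a condition of being listed.

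By coverage the Htr3a window took place 927 of 2598, above the median of 26 reads. Most bound genes had a single window (792 of 1299), and among these Htr3a took place 117, with a median of 14 reads. The same 7-mer was listed for 39 windows in 38 genes, with coverage from 6 to 1098 reads and a median of 38, and Htr3a was at place 19 among them. By level in total RNA of control cells, in counts scaled to library size (CPM), Htr3a exceeded 91.9% of the 1279 bound genes with RNA counts, and its coverage per CPM was 0.0921, against a median of 0.196. Of the windows with RNA counts, 26.2% had a lower ratio. Among the 697 windows of genes within 2-fold of the CPM of Htr3a, the median coverage was 50 reads, and the Htr3a window was at place 384. The table lists only windows with at least 6 covering reads, 3 deletions and a motif score above the authors' cut-off. Sites in Htr3a that were weaker or had a lower motif score would therefore not appear in it.

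**Figure D1:**
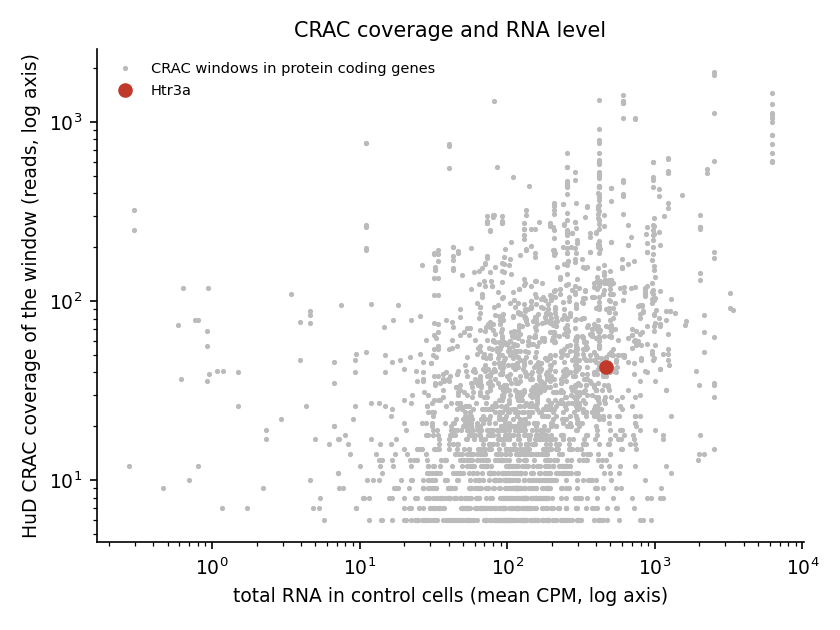
HuD CRAC coverage (reads, log axis) of each window in protein coding genes against the mean level of its gene in total RNA of control cells (CPM, log axis). The red point is Htr3a, with 43 reads at 466.8 CPM, among the more abundant bound genes.

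At its 3′ end, Htr3a was counted less often in all 3 HuD libraries than in any control library. The 3′ end table held 1 end for Htr3a, at the annotated transcript end, and counts there were converted to CPM with TMM-scaled library sizes. The control libraries had 110.6, 153.2 and 127.3 CPM (1754, 2107 and 2006 reads). The HuD libraries had 38.84, 62.99 and 41.3 CPM (523, 918 and 622 reads). The highest HuD library lay below the lowest control library, a separation in this direction that 5.81% of the 9621 genes tested also had. The means were 130.4 ± 21.5 CPM and 47.7 ± 13.3 CPM (SD, n = 3 each), so HuD cells had 36.6% of the control level.

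The fitted log2 change was -1.45 (SE 0.21), a 2.73-fold lower count, and -1.47 (SE 0.09) with the replicate number as a block. Libraries of the same number gave log2 ratios of -1.51, -1.28 and -1.62. Replicate 2 was the highest library in both groups. Htr3a had the 15th lowest change of 9621 genes. The median change over all genes was 0.00 and the 1st percentile -0.71. With leave-one-out fits the change stayed between -1.70 and -1.32. Since the table had a single end for Htr3a, a shift between ends could not be measured, and reads starting more than 10 nt from a known site were not counted by the authors.

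**Figure D2:**
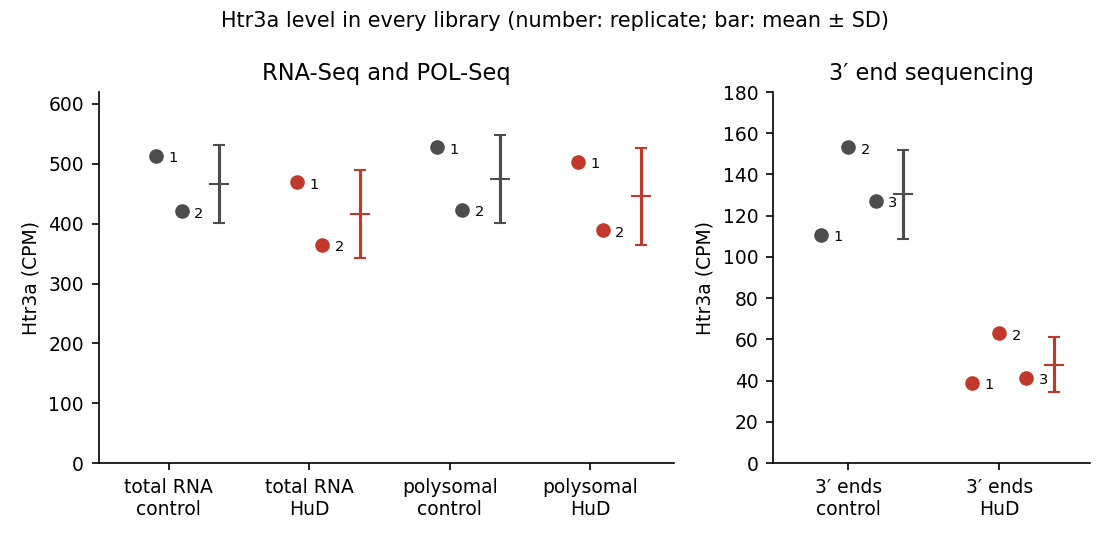
Htr3a level (CPM, axes from 0) in each library of total RNA, polysomal RNA and 3′ ends, with the replicate number beside each point and the mean ± SD of each group at its right. The 3 HuD libraries of the 3′ ends lie below all 3 controls, whereas the HuD and control libraries of total and polysomal RNA overlap.

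In total RNA the Htr3a groups overlapped. The control libraries had 512.9 and 420.6 CPM and the HuD libraries 468.9 and 364.6 CPM, with means of 466.8 ± 65.3 and 416.8 ± 73.8 (SD, n = 2 each). Replicate 1 was above replicate 2 in both groups. The log2 change was -0.16 (SE 0.17), smaller than the SD of 0.23 between libraries of a group on the log2 scale, and 9.19% of 14906 genes had a lower change. Without HuD replicate 2 of total RNA the change was 0.01, and in same-numbered libraries the log2 ratio was -0.13 and -0.21. With the replicate number as a block the change was -0.17 (SE 0.06), though these libraries share only a number. The difference between the log2 changes without the block in 3′ ends and in total RNA was -1.29 (SE 0.27). This SE comes from the errors of 2 separate fits to separate libraries, without a test.

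Polysomal RNA, the RNA recovered with several ribosomes from sucrose gradients, gave a like picture. Control libraries had 527.4 and 423.4 CPM (mean 475.4 ± 73.5) and HuD libraries 503.3 and 388.9 CPM (mean 446.1 ± 80.9; SD, n = 2 each), again overlapping and again with replicate 1 above replicate 2. In all 4 groups of total and polysomal RNA, replicate 1 was 1.22 to 1.29 times replicate 2. The log2 change was -0.09 (SE 0.17), within the SD of 0.24 between libraries. It was 0.08 without HuD replicate 2 of polysomal RNA, and -0.07 and -0.12 in same-numbered libraries. With the replicate number as a block it was -0.09 (SE 0.06).

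Polysomal levels of Htr3a were close to total levels in both conditions. The log2 ratio of polysomal to total RNA was 0.03 (SE 0.17) in control cells and 0.10 (SE 0.17) in HuD cells. Between same-numbered libraries the ratio was 1.03 and 1.01 in control cells and 1.07 in both pairs of HuD cells. The change in translation efficiency (TE, polysomal over total RNA) was 0.07 (SE 0.25), with 68.9% of genes lower. Leaving out 1 library moved it from -0.13 without POL-Seq HuD replicate 1 to 0.26 without RNA-Seq HuD replicate 1. Such a fit unbalances the replicate numbers, and replicate 1 was above replicate 2 in every group. With the replicate number as a block the change in TE was 0.07 (SE 0.09). Both fits gave a change smaller than its SE, so no direction can be given.

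**Figure D3:**
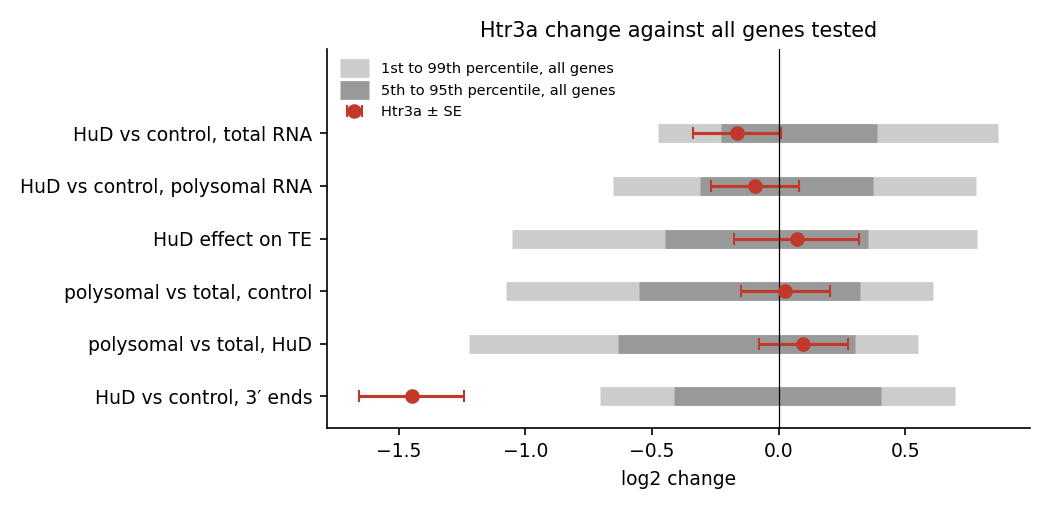
Log2 change of Htr3a (red, ± SE) in each comparison, over the range of all genes tested (dark bar, 5th to 95th percentile; light bar, 1st to 99th). Htr3a lies within the dark bar in the 5 comparisons of total and polysomal RNA and at -1.45 in the 3′ ends, outside the light bar that begins at -0.71.

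Htr3a was the most abundant of the genes with a 3′ end log2 change of -1 or lower that were also tested in total RNA. Of 9399 genes tested in both 3′ ends and total RNA, 34 had such a change (0.385% of all 9621 genes with 3′ end counts did). Htr3a had the highest mean 3′ end level of these 34, and the median of the other 33 was 2.19 CPM. None of the other 33 had a total RNA log2 change of -1 or lower. Their total RNA changes ran from -0.42 to 0.66, with a median of 0.00, and 16 of 33 were below 0. Over all 14906 genes tested in total RNA, the 1st to 99th percentile ran from -0.48 to 0.87, with a median of 0.00. The other 33 thus lay within the range of genes in general. Of the 34 genes, 2 had a CRAC window, Htr3a and Fn1, the fibronectin gene (named after its values were seen; 3′ end log2 change -1.22). Among the 1094 bound genes with 3′ end counts, Htr3a had the lowest change. The median over all bound genes was 0.00, as was the median over the 8187 other protein coding genes, of which 33 had a change of -1 or lower.

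**Figure D4:**
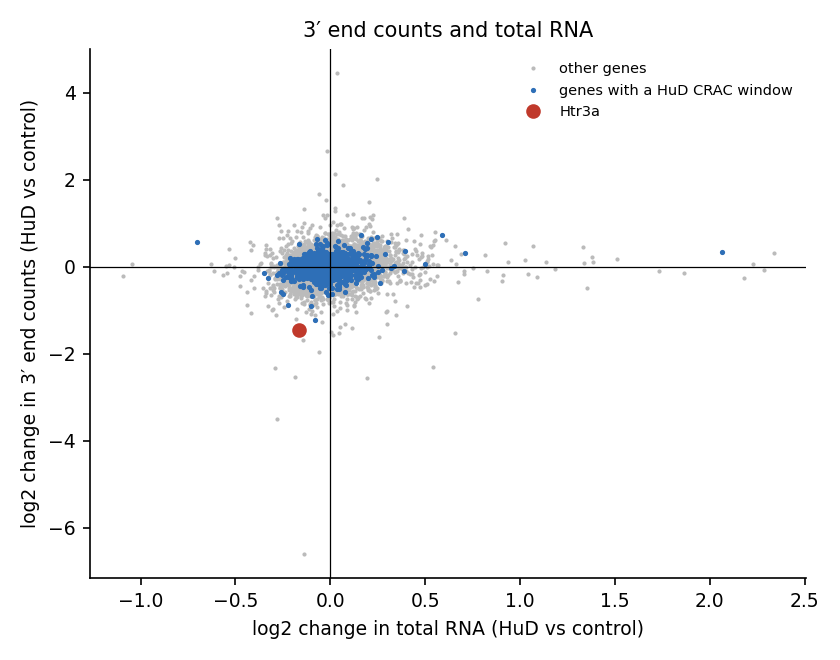
Log2 change between HuD and control cells in 3′ end counts (vertical) against that in total RNA (horizontal), one point per gene, with genes that have a HuD CRAC window in blue and Htr3a in red. Htr3a sits at -1.45 on the vertical axis and -0.16 on the horizontal axis, below the other genes with a window.

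Among the Cys-loop receptor subunits, Htr3a had the highest level by far. Levels of different genes are compared per length of exon (FPKM, from the CPM and the union of exons). Of 41 subunit genes of the family analysed here, 11 had counts in total RNA. In control total RNA Htr3a was at 224.1 ± 31.4 FPKM (SD, n = 2), place 179 of 12929 protein coding genes, whose median was 6.93. The next subunit was Chrna3, a nicotinic subunit of autonomic ganglia, at 32.3 ± 3.04 FPKM, which Htr3a exceeded 6.95-fold. Chrnb2, the common β subunit of brain nicotinic receptors, followed at 10.7 ± 0.17 FPKM. Then came Chrna7, the subunit of the homomeric α7 receptor, at 7.30 ± 0.47, and Chrnb4 at 2.90 ± 0.07 FPKM.

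Htr3b, the partner subunit of Htr3a, was at 2.42 ± 0.53 FPKM, 92.7-fold below Htr3a. Its 2 control libraries had 2.79 and 2.04 FPKM and its 2 HuD libraries 2.92 and 1.84, so the groups overlapped. In control total RNA all neighbours in the order of 11 subunits were separated by both libraries, except Chrnb1 and Gabrd, which overlapped. Htr3a also held the first place in CPM and with the length of the longest transcript.

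**Figure D5:**
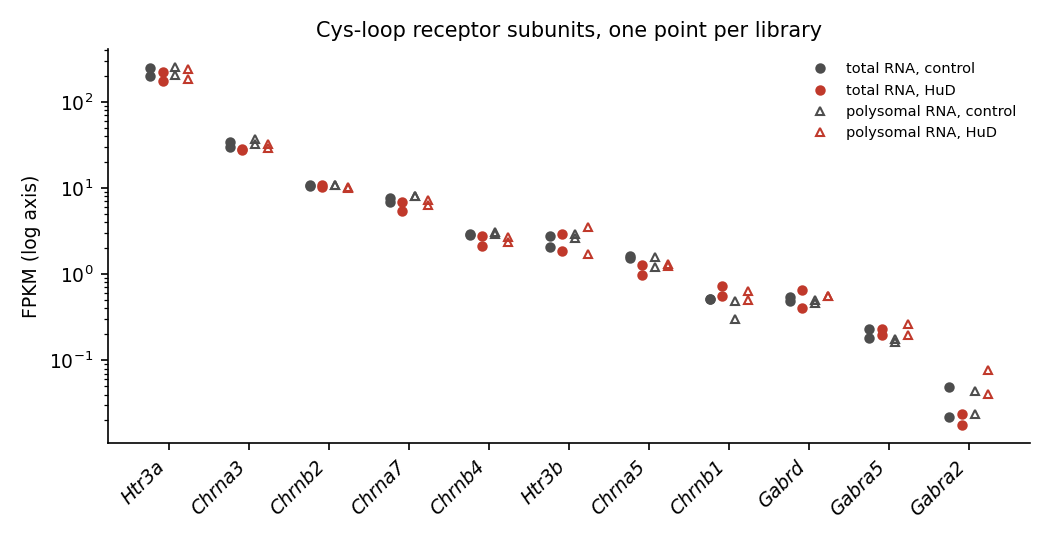
FPKM (log axis) of the 11 Cys-loop receptor subunits analysed with counts, one point per library, in order of their mean in control total RNA. Htr3a lies above 170 FPKM in all 8 libraries, and no other subunit shown reaches 40 FPKM.

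None of the other 10 subunits passed the test between HuD and control cells in total RNA. No gene passed an adjusted p under 0.05 (edgeR's quasi-likelihood test) in total RNA, a background of 0.0% of 14906 genes, with 394 genes at an unadjusted p under 0.05 and 1 gene past the adjusted threshold in DESeq2. In polysomal RNA the counts were 0, 622 and 3, and for TE 0, 146 and 0. The subunits' median log2 change in total RNA was -0.12, with a range from -0.78 for Gabra2, which was under 0.5 CPM in every group, to 0.30 for Chrnb1. The median of all genes was 0.00. In the 3′ end table only 3 of the 10 were present, Chrna3, Chrnb4 and Gabrd. Their log2 changes lay between -0.36 (Chrnb4, SE 0.35) and -0.04 (Gabrd, SE 0.33), and none passed, against a background of 0.052% of genes called in either direction. None of the 10 had a CRAC window. Few genes did, 1435 of the 15229 in at least 1 of the 3 deposited tables, so this says little about the subunits.

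Other serotonin receptors were low or had no counts. Of 12 G protein-coupled serotonin receptors 3 had counts, and Htr6 and Htr1b reached 1 CPM in at least 1 group. Htr6 was at 3.23 ± 0.26 FPKM and Htr1b at 0.20 ± 0.08 FPKM in control total RNA (SD, n = 2 each). None of the 3 passed the test in any comparison, and their median log2 change in total RNA was -0.30.

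Genes of serotonin synthesis and handling were better represented, and all 12 measured members of 17 reached 1 CPM. Pcbd1, Qdpr, Gch1 and Spr, which make or recycle the cofactor tetrahydrobiopterin, were at 116.7, 40.0, 25.9 and 9.52 FPKM in control total RNA. Slc29a4, a low-affinity monoamine transporter, was at 36.6 FPKM. Tph2, the neuronal tryptophan hydroxylase that starts serotonin synthesis, was at 6.51 ± 0.35 FPKM. None of the 12 passed the test in total RNA, polysomal RNA or TE, and the median log2 change in total RNA was -0.06, against 0.00 for all genes.

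In the 3′ ends 11 of the 12 were tested and none passed without the block. With the block Slc18a2, the vesicular monoamine transporter that loads serotonin into vesicles, passed. Its 3′ end level was 0.694, 0.582 and 1.27 CPM in the control libraries and 2.82, 1.30 and 3.12 CPM in the HuD libraries, so the groups did not overlap (6.23% of genes did not, in this direction). The log2 change of Slc18a2 was 1.49 (SE 0.42, adjusted p = 0.527) without the block and had an SE of 0.29 and an adjusted p = 0.026 with it, by edgeR's quasi-likelihood test. Over its 13 alternatives the adjusted p was 0.026 to 1.0, and only the fit with the block passed. With the block 2.26% of all genes passed in either direction, and 1.04% in this one. In total RNA the log2 change of Slc18a2 was 0.20 (SE 0.23).

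Of 9 genes for receptor assembly and clustering, 8 had counts and none passed in the comparisons of HuD with control cells with all libraries. Without polysomal control replicate 1, which left a lone control library there, the log2 change of Hspa5 in polysomal RNA was -0.65, against -0.37 (SE 0.19) with it. The chaperones Hspa5 and Canx, which act in the endoplasmic reticulum, were at 165.6 and 140.4 FPKM in control total RNA. Ric3, a chaperone of nicotinic and 5-HT3 receptors, was at 11.9 ± 0.52 FPKM, with a log2 change of 0.04 (SE 0.08) in total RNA. Gabarap, which binds GABA-A receptors, was at 86.3 FPKM, Ubqln1 at 40.1 and the scaffold gephyrin (Gphn) at 10.97 FPKM. Of all 15229 genes, 1435 had a CRAC window. This list was the only one of the 4 receptor-related lists with further windows, in Canx (6 windows), Gabarap (1) and Ubqln1 (1). Their 3′ end changes were -0.04, 0.32 and 0.01 on the log2 scale, beside -1.45 for Htr3a, and none passed the test. Between polysomal and total RNA, where 0.174% of genes were called in control cells and 0.537% in HuD cells, no gene of the 4 lists passed. Without polysomal control replicate 1, Canx, Hspa5, Htr5b, Htr6, Maoa, Pcbd1, Rapsn and Slc29a4 passed in control cells, and the number of all genes called went from 26 to 2145.

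Genes beside Htr3a on chromosome 9 did not pass the test in 3′ ends or total RNA. Of all genes, 0.052% of 9621 passed in the 3′ ends and 0.0% of 14906 in total RNA, so not passing says little about the neighbours. Within 500 kb, 10 other genes had counts: Nxpe4, Rexo2, Rbm7, Gm5617, Nnmt, Zbtb16, Htr3b, Usp28, Zw10 and Drd2. Only Rexo2, Usp28 and Zw10 had 3′ end counts, and their log2 changes of 0.00 (SE 0.12), -0.12 (SE 0.21) and -0.09 (SE 0.12) did not pass the test. None of the 10 passed in total RNA and none had a CRAC window. Of all 15229 genes, 1435 had a window, so having none also says little about the neighbours. In GENCODE vM21, 1 antisense gene overlaps Htr3a, and 0 of its exons overlap an Htr3a exon.

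The genes most like Htr3a in pattern were named by Pearson's r of log2 CPM, as a description. Over the 8 RNA-Seq and POL-Seq libraries these were Fkbp14 (0.99), D430042O09Rik (0.98), Mgarp (0.98), Khdrbs3 (0.98) and Cfap61 (0.98), among 12905 genes with a mean of at least 1 CPM. Htr3a ranged over 0.53 log2 units in these libraries, and replicate 1 was above replicate 2 in each of the 4 groups. Over the 6 3′ end libraries they were Lbr (0.99), 1600002H07Rik (0.99), Ttf2 (0.99), Rnf168 (0.99) and Dkk3 (0.99), among 9609 genes. Of these Lbr and Dkk3 had a CRAC window, as had Mgarp, beside 1435 of all 15229 genes. Their 3′ end changes were smaller than that of Htr3a, from -0.68 (Dkk3, SE 0.12) to -0.27 (Rnf168, SE 0.12), against -1.45. The libraries share replicate numbers, and 28 genes over the 8 libraries and 53 over the 6 had an r of 0.95 or higher.

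As a check of the labels, Elavl4 in total RNA was at 78.3 and 97.4 CPM in control and 236.6 and 211.7 CPM in HuD libraries, a log2 change of 1.35 (SE 0.15, adjusted p = 0.0866 by edgeR, and 3.73e-16 to 1.0 over 14 alternatives, the lowest with DESeq2). In the 3′ ends Elavl4 was lower in the HuD libraries (54.6, 31.4 and 52.4 CPM) than in same-numbered controls (78.1, 38.5 and 78.1 CPM), with a log2 change of -0.49 (adjusted p = 0.922, 0.0306 with the block, and 0.0306 to 1.0 over 13 alternatives, by edgeR or DESeq2). A 3′ tag at the ends of the mouse gene does not measure a human transgene, so this checks nothing about the labels. Total counts were between 21296012 and 36284728 per RNA-Seq or POL-Seq library and between 12986862 and 15751036 per 3′ end library. Of 11 motor neuron markers 9 had counts in total RNA, and Slc5a7 and Mnx1 had none. The neurofilament and peripherin genes Prph, Nefh, Nefl and Nefm were at 601.9, 62.5, 53.0 and 14.8 FPKM in control total RNA. The transcription factor Isl1 was at 10.3 FPKM, Slc18a3 at 3.21, Lhx3 at 0.43 and Lhx4 at 0.29 FPKM. Chat, the acetylcholine-synthesizing enzyme, was at 0.11 FPKM (0.52 CPM). In the 3′ ends Slc18a3 had a log2 change of -1.10 (SE 0.35) and did not pass the test, with or without the block. Of 11 markers of glial, immune, fibroblast, endothelial and serotonergic cells 4 had counts. Apart from Tph2 they were at 0.14 FPKM (Gfap, 0.57 CPM), 0.69 FPKM (Mbp, 5.81 CPM) and 1.20 FPKM (Pecam1, 7.50 CPM) in control total RNA. None of the markers passed the test between HuD and control cells with all libraries. Without polysomal control replicate 1, which left a lone control library there, the log2 change of Nefh in polysomal RNA was -0.51, against -0.30 (SE 0.13) with it.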

How the data were processed

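For RNA-Seq and POL-Seq (TruSeq Stranded mRNA) the authors aligned reads with STAR 2.5.3a to GRCm38.p4 with Gencode M6 and deposited counts per gene, not normalized. The strand setting of the count column is not given in the sources used here. For the 3′ ends (QuantSeq REV) the authors deposited counts of reads starting within 10 nt of known polyadenylation sites, repeated for transcripts with the same end. For CRAC the authors aligned with TopHat2 2.0.14, pooled replicates and deposited, per window, coverage (a signal in reads), counts of reads with deletions, an unadjusted p-value and a motif score. Rows sharing a position were reduced to 2868 unique windows, each assigned to 1 gene.

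Counts were tested with edgeR 4.0.16 in R 4.3.3 (TMM, filterByExpr, quasi-likelihood test, Benjamini-Hochberg adjustment over all genes, threshold 0.05). CPM and FPKM were computed from the counts, FPKM with GENCODE vM21 exon lengths. SE is the log2 change divided by the root of F. The gene, the lists and the rule for naming genes were chosen with earlier results of these data known. Of each list, members of at least 1 CPM were named, at most the 6 highest by FPKM, plus any called. The result for 1 gene of the lists is not reported here. The 10 neighbours within 500 kb and the 5 genes most like Htr3a in each table were named too. Tables were summarised in Python 3.11.15 with SciPy 1.17.1, pandas 2.3.3 and matplotlib 3.10.9.

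Deviations from group means of same-numbered 3′ end libraries correlated at 0.4, 0.657 and 0.515. Differently numbered libraries were not compared, so it was assumed, not shown, that the numbers pair these libraries. The fit with the number as a block is given where it changes a call. On simulated counts, a log2 change of 1 was recovered for 97.5% of 200 genes in the 3′ ends, 86.5% in total RNA and 26.5% in TE. The simulated counts had the same dispersion for every gene and no replicate effect, and only well-counted genes were changed. These shares therefore need not hold for the measured libraries. Alternatives changed the scaling, filter, test, block, site definition and libraries.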

Additional observations from a re-analysis of the deposited data

How the results depend on the processing

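The log2 changes of Htr3a moved by less than the SD between replicates under every other scaling, filter, test, block and site definition tried. Leaving out 1 library gave ranges of -0.36 to 0.01 in total RNA, -0.29 to 0.08 in polysomal RNA, -0.13 to 0.26 in TE, -0.14 to 0.18 for polysomal over total RNA in control cells, -0.10 to 0.29 in HuD cells, and -1.70 to -1.32 in the 3′ ends. Numbers of genes called depended more on the method, and the cause was not tested. DESeq2 called 1 gene in total RNA, 3 in polysomal RNA, 67 and 240 between polysomal and total RNA (control and HuD cells) and 35 in the 3′ ends. Fits to the compared groups alone called 1 in total RNA and 0 and 353 between polysomal and total RNA. With the replicate block 41 and 416 genes were called between polysomal and total RNA, 217 in the 3′ ends, and 0 in total RNA, polysomal RNA and TE. RNA-Seq and POL-Seq libraries share only a number: with 2 per group their deviations correlated at 0.188 to 0.387. With the block the change of Htr3a was -0.17 (SE 0.06) in total and -0.09 (SE 0.06) in polysomal RNA. Without 1 library 0 to 1 genes were called in total RNA, 0 to 372 in polysomal RNA, 0 to 47 for TE, 0 to 2145 and 0 to 411 between polysomal and total RNA, 2 to 14 in the 3′ ends and 0 to 1 in site usage. A lone library is then assumed to vary like the other groups. Site usage, which has no value for Htr3a, gave 1 gene, and 0 with sites within 20 nt merged. At a combined p under 0.05, 0 windows of Htr3a remained, and 1 list gene had a window. For TE, a fit to fewer than the 4 groups was not run. Of the named genes, 13 of 4098 alternative values passed the threshold where the reported one did not, 12 of them without polysomal control replicate 1, and none reversed.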

Other observations

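In the 3′ ends, 4 genes other than Htr3a had a 3′ end change at least as low as that of Htr3a and a mean of at least 5 CPM, and were named after their values were seen. Armcx2, an X-linked armadillo-repeat gene, was at 66.9, 83.9 and 67.6 CPM in the control libraries and at 0.89, 0.27 and 1.06 CPM in the HuD libraries of the 3′ ends. Nqo1, a quinone reductase, was at 19.5, 16.6 and 23.5 CPM against 2.3, 1.44 and 1.53 CPM. Dap was at 50.2, 57.9 and 39.5 CPM against 17.8, 13.2 and 15.1 CPM. Ncald, the neuronal calcium sensor neurocalcin delta, was at 7.19, 11.8 and 7.43 CPM against 2.75, 3.02 and 3.59 CPM. Their total RNA log2 changes were -0.14 (SE 0.32) for Armcx2, -0.28 (SE 0.22) for Nqo1, -0.15 (SE 0.43) for Dap and 0.00 (SE 0.33) for Ncald. None of them had a CRAC window, which 1435 of all 15229 genes had.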
